A study of Caenorhabditis elegans with 6 samples.

Results

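The comparison described here sets culture 2 against culture 1 in early embryos of Caenorhabditis elegans, within each of 3 genotypes. It uses all 6 libraries of the series, with 3 libraries on each side, and all 13951 genes that passed a filter on low counts out of 20182 in the deposited table. The wild-type strain is GW1, strain GW828 carries a deletion of cec-4, and strain GW638 carries deletions of both met-2 and set-25. Each genotype is represented by 1 strain, and each strain was grown as 2 independent liquid cultures at 20 °C on the bacterial strain HB101 until gravid adults held early embryos, after 60 to 65 h depending on the strain. The labels give every sample the stage early embryo and no count of cells per embryo. The labels number the cultures 1 and 2 but do not say that equal numbers shared a day, an RNA extraction or a sequencing pool. Samples were pooled in sets of 3 for sequencing, and which samples shared a pool is not given, so culture number and sequencing pool cannot be told apart.

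Embryos released from adults by hypochlorite are a mixture of ages. The youngest run on transcripts that the mother loaded into the oocyte, among them eggshell, meiotic and cell fate mRNAs that are degraded as the embryo divides. The embryo's own genome is then switched on, first in short bursts of early zygotic genes and later in genes of muscle, epidermis, nerve, pharynx and gut as cells differentiate. In bulk samples of this kind, more cells of a type and more RNA per cell cannot be told apart.

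Gene counts summed to between 30171874 and 45677214 per library. Transcripts of the deleted genes followed the labels in both cultures. The heterochromatin anchor gene cec-4 stood at 99.7 and 77.9 CPM (counts scaled to a common library size, corrected for composition) in cultures 1 and 2 of its own deletion strain, and between 272 and 316 CPM in the other 4 libraries. The histone methyltransferase gene met-2 stood at 80.3 and 72.0 CPM in met-2 set-25 and between 358 and 417 CPM elsewhere. The second methyltransferase gene, set-25, stood at 28.4 and 23.05 CPM there and between 95.3 and 117 CPM elsewhere. None of the 3 genes passed the test between cultures described below. As for the labelled stage, the maternal markers, among them pos-1 and mex-5, summed to between 786 and 1198 CPM. The 5 larval and adult cuticle genes summed to between 0.197 and 0.573 CPM and the 6 vitellogenin genes to between 12 and 34 counts. Markers chosen for late embryos were abundant too, with 4 epidermis genes summing to between 1620 and 2519 CPM and 4 muscle genes to between 478 and 974 CPM. These sums therefore do not fix the age of the embryos. The share of counts from the ribosomal RNA repeat at the end of chromosome I went from 19.3% in culture 1 to 35.3% in culture 2 of wild-type and from 25.4% to 38.05% in cec-4, but from 31.3% to 9.93% in met-2 set-25. The share of the mitochondrial chromosome moved the other way, from 15.6% to 9.41%, from 13.2% to 9.59% and from 11.9% to 17.4%. The second met-2 set-25 library thus stood apart from the other culture 2 libraries in both shares, with the lowest ribosomal and the highest mitochondrial share of the 6, and the results are given with and without that genotype. Whether these shares bear on any gene was not tested.

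The cultures of a genotype differed far beyond counting error, since a chi-square test of their counts gave 111 per degree of freedom for the wild-type pair, 65.6 for the cec-4 pair and 46.4 for the met-2 set-25 pair. Over 8699 genes with a mean of at least 5 CPM in every genotype, the log2 ratio of culture 2 to culture 1 varied across genes with an SD of 0.48 for wild-type, 0.36 for cec-4 and 0.34 for met-2 set-25. Wild-type cultures were therefore the most unlike each other. The biological coefficient of variation, which is the typical relative spread of a gene between cultures, was 21.7% with genotype alone in the model and 15.5% once the culture number was added. Across the 13951 genes the log2 ratios of wild-type and cec-4 correlated with a Pearson r of 0.66, those of wild-type and met-2 set-25 with 0.33, and those of cec-4 and met-2 set-25 with 0.18. These correlations are descriptions across genes, which are not independent replicates, and no library is shared between the ratios. The gene by gene agreement was thus closest between wild-type and cec-4.

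**Figure D1:**
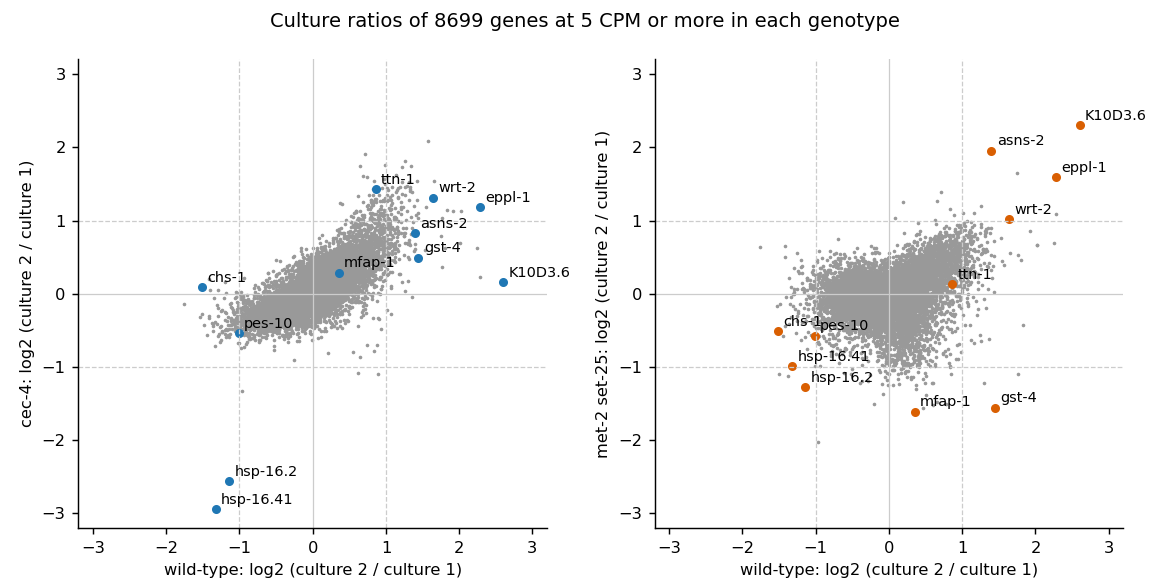
Each point is 1 of 8699 genes; the x axis is the log2 ratio of culture 2 to culture 1 in wild-type and the y axis the same ratio in cec-4 (left) or met-2 set-25 (right). Dashed lines mark 2-fold. The cloud runs along the diagonal for cec-4, while for met-2 set-25 many genes hang below 0, including mfap-1 at -1.61.

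With genotype as a block, edgeR's quasi-likelihood test called 0 of 13951 genes between cultures at an adjusted p of 0.05, which is 0% for higher and for lower. There were 3163 genes (22.7%) at an unadjusted p under 0.05, of which 2212 (15.9%) were higher and 951 (6.82%) lower in culture 2. The smallest adjusted p was 0.0508, shared by 96 genes, and 1188 genes lay under 0.10, with 1028 higher (7.37%) and 160 lower (1.15%). DESeq2 called 718 genes higher (6.23% of 11516) and 133 lower (1.15%) at 0.05, and limma voom called 82 higher (0.588%) and 1 lower (0.00717%). The count of 0 thus sits at the edge of the threshold, and the values below are read with that in mind.

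The outcome turned on met-2 set-25. With both of its libraries left out, edgeR called 2484 genes higher (18.3% of 13592) and 1646 lower (12.1%) in culture 2, whereas leaving out cec-4 gave 1 gene higher (0.00725%) and 0 lower, with 1855 (13.5%) at an unadjusted p under 0.05. Leaving out wild-type gave 0, with 1368 (10.1%) at an unadjusted p under 0.05; these subsets were fitted with edgeR alone. The fit of wild-type and cec-4 rests on 4 libraries and 1 residual degree of freedom, and it says nothing of met-2 set-25. This fit left out the genotype whose ratios agreed least with the others, and its residual is the disagreement of the 2 that agreed best. The fit gave calls where that of all 3 genotypes called 0, so its calls describe these 4 libraries only. A call in it need not be shared by both genotypes, since chs-1 passed as falling with a wild-type ratio of -1.51 against 0.09 for cec-4, and sdz-8 passed as rising with 1.36 against -0.05. Below, a gene is said to rise or fall only where it passed in that fit of wild-type and cec-4.

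**Figure D2:**
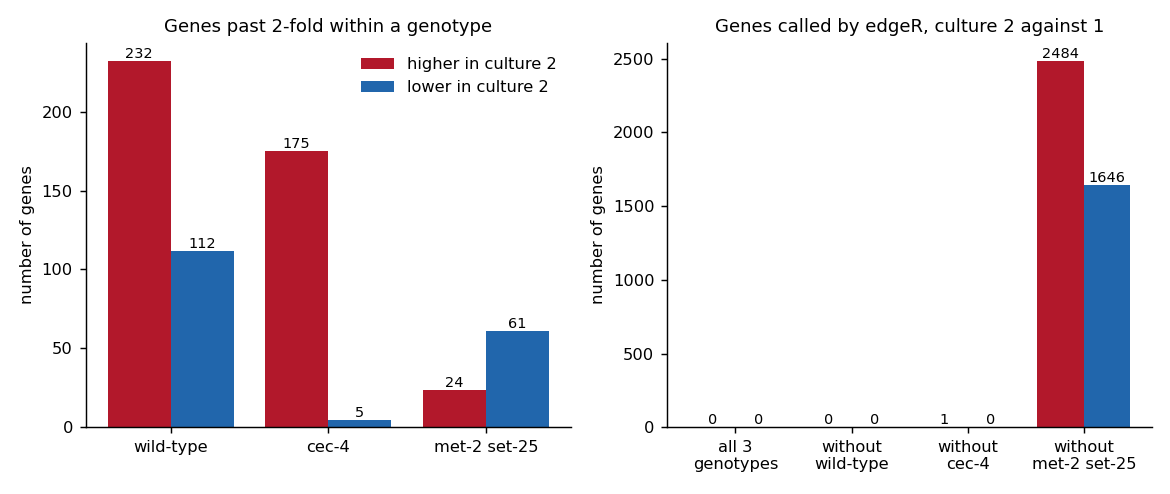
Bars count genes higher (red) and lower (blue) in culture 2. On the left are genes past 2-fold within each genotype at 5 CPM or more, with no test, and on the right genes past an adjusted p of 0.05 in edgeR with all genotypes or with 1 left out, where only the fit without met-2 set-25 calls more than 1 gene.

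The 5 genes of smallest p over all 3 genotypes were higher in culture 2 in every genotype. The largest level among them belonged to wrt-2 (WBGene00006948, X 3092395 to 3094349 in WBcel235), which encodes a hedgehog-related protein of the epidermis. Its levels in culture 1 and culture 2 were 36.2 and 114 CPM in wild-type, 30.4 and 76.3 CPM in cec-4, and 41.3 and 84.0 CPM in met-2 set-25. All 3 culture 2 values lay above all 3 culture 1 values, with a log2 difference of 1.33 ± 0.15 (SE, n = 3 a side) and an edgeR adjusted p of 0.0508. The gene eppl-1 (WBGene00020139, IV 8449353 to 8451759) was at 17.6 and 87.6 CPM, 27.2 and 62.6 CPM, and 18.05 and 55.4 CPM in the same order. Culture 2 was again above every culture 1 value, by 1.71 ± 0.21 at the same adjusted p. The other 3 genes were near or under 10 CPM throughout: oac-45, of an acyltransferase family, differed by 1.98 ± 0.21, Y38A10A.2 by 1.49 ± 0.19, and R05D8.11 by 1.42 ± 0.18. Each of the 5 rose in wild-type and cec-4 alone. The annotation places pccb-1 opposite wrt-2 and a pseudogene opposite R05D8.11, and whether reads were assigned by strand is not given. Of 94 genes named in all, 38 overlap another annotated gene in this way or on the same strand, and their counts may hold reads of both.

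Ranked by the root mean square of the 3 ratios, with no test, the most variable genes at 5 CPM or more were K10D3.6, the paired small heat shock genes hsp-16.41 and hsp-16.2, eppl-1, ZC123.1, F22B5.4, WBGene00018464, adh-1, asns-2 and argn-1. The asparagine synthetase gene asns-2 (WBGene00019730, X 8748434 to 8750941) was the most abundant of them, at 182 and 482 CPM in wild-type, 127 and 226 CPM in cec-4, and 89.5 and 348 CPM in the met-2 set-25 pair. Every genotype was higher in culture 2, and all 3 culture 2 levels lay above all 3 culture 1 levels, by 1.40 ± 0.20 on the log2 scale at an edgeR adjusted p of 0.0508. The arginase gene argn-1 (X 5630023 to 5631825) was at 17.7 and 60.7, 16.3 and 28.6, and 14.2 and 45.7 CPM in the same order. These are enzymes of amino acid metabolism, and in both the ratio was smallest in cec-4. The same held for K10D3.6 (I 7116329 to 7116655), at 9.19 and 58.4 CPM in wild-type, 12.05 and 13.5 CPM in cec-4, and 11.03 and 56.4 CPM in met-2 set-25. The culture 2 level of K10D3.6 in cec-4 was close to the 3 culture 1 levels, and far from the other culture 2 levels. The alcohol dehydrogenase gene adh-1 (V 11888248 to 11889650) showed a like pattern, with log2 ratios of 2.29, 0.23 and 1.09.

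The stress-inducible small heat shock genes went the other way. Transcripts of hsp-16.41 (WBGene00002018, V 1805178 to 1805875) stood at 60.98 and 24.03 CPM in wild-type, 26.4 and 3.01 CPM in cec-4, and 23.8 and 11.7 CPM in met-2 set-25. Those of hsp-16.2 (WBGene00002016, V 1804334 to 1804957) stood at 44.1 and 19.7, 15.9 and 2.28, and 17.7 and 7.03 CPM. Each genotype was lower in culture 2, although the culture 2 level of wild-type overlapped the culture 1 levels of the mutants. The pair lies 220 bp apart on opposite strands, so they are neighbours and not independent examples. Over all genotypes hsp-16.2 differed by -1.70 ± 0.30 (edgeR adjusted p = 0.051) and hsp-16.41 by -1.76 ± 0.36 (adjusted p = 0.0556), and both fell in wild-type and cec-4. The inducible hsp-70, named after its values were seen, moved with them, at 9.98 and 4.42, 2.68 and 0.526, and 1.92 and 0.762 CPM. Of the 20 heat shock and chaperone genes tested, 7 rose and 4 fell in wild-type and cec-4, beside 18.3% and 12.1% of all genes. Among the risers were the small heat shock genes hsp-25 and hsp-12.2, by 0.82 ± 0.16 and 0.81 ± 0.20. The heat shock list thus did not move one way. The gene F22B5.4 (II 8449710 to 8452742), which responds to low oxygen, was lower in culture 2 of each genotype, at 16.6 and 8.26, 16.50 and 6.25, and 23.6 and 5.41 CPM, and its culture 1 and culture 2 values did not overlap. It differed by -1.51 ± 0.23 at an adjusted p of 0.0508, but of the 27 hypoxia genes tested in wild-type and cec-4, 4 rose and 1 fell.

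**Figure D3:**
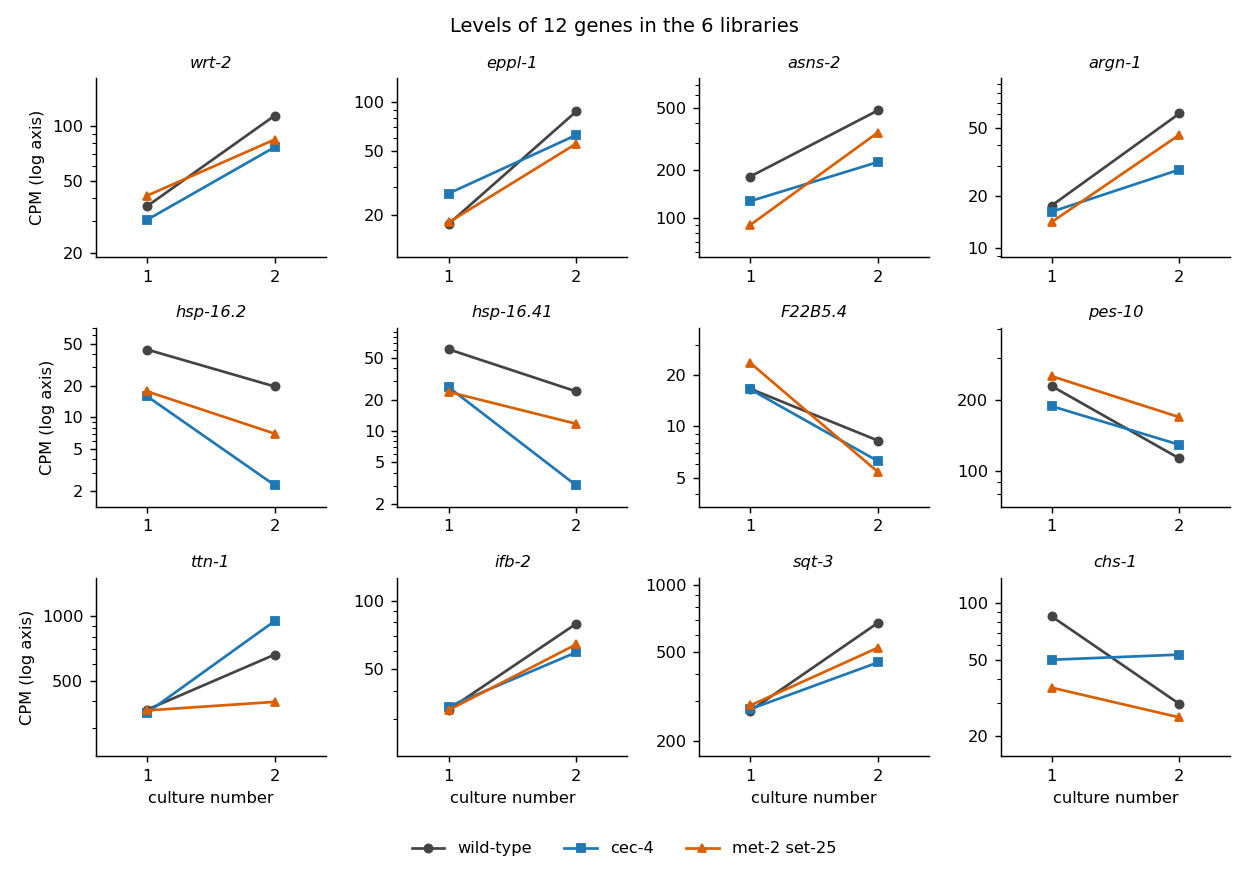
Levels in CPM on a log axis in cultures 1 and 2, joined by a line for each genotype, for 12 genes. The lines of wrt-2, eppl-1, ifb-2 and sqt-3 climb in every genotype and those of hsp-16.2, F22B5.4 and pes-10 descend, while ttn-1 climbs more steeply in wild-type and cec-4 than in met-2 set-25 and chs-1 descends mainly in wild-type.

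Past 2-fold at 5 CPM or more were 344 genes of wild-type (3.84%), 180 of cec-4 (2.04%) and 85 of met-2 set-25 (0.948%). Wild-type had 232 genes higher (2.59% of 8949) and 112 lower (1.25%) in culture 2. In cec-4 there were 175 higher (1.98% of 8839) and 5 lower (0.0566%), and in met-2 set-25 there were 24 higher (0.268% of 8969) and 61 lower (0.68%). The wild-type and cec-4 counts leaned to higher and the met-2 set-25 count to lower, but under scaling by library totals alone the met-2 set-25 split turned to 54 higher and 40 lower, and under the DESeq2 size factor method the wild-type split was 187 higher and 149 lower. Among the 8699 genes at 5 CPM or more in every genotype, 451 were past 2-fold in any genotype. Of these, 364 were so in 1 genotype only. Wild-type and cec-4 shared 72 of the higher genes, which is 36.9% of the 195 in wild-type and 45% of the 160 in cec-4, beside 2.24% and 1.84% of all 8699 genes. They shared 2 of the lower genes, out of 105 (1.21% of all) and 5 (0.0575%). Wild-type and met-2 set-25 shared 9 higher genes, which is 4.62% of the 195 and 56.25% of the 16 (0.184% of all). They shared 3 lower genes, out of 105 and 60 (0.69%). The cec-4 and met-2 set-25 pair shared 2 higher genes, out of 160 and 16, and 2 lower genes, out of 5 and 60. Of the 8699 genes, those past 2-fold in all 3 genotypes were wrt-2 and eppl-1 on the higher side and hsp-16.2 on the lower side. The genes oac-45, Y38A10A.2 and R05D8.11, named above, were also more than 2-fold higher in culture 2 of every genotype. They did not reach 5 CPM in every genotype and are not among the 8699. Another 3 genes were past 2-fold in opposite directions in wild-type and met-2 set-25: gst-4, F56D5.3 and Y46H3C.5, of which the last 2 are named after their values were seen.

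The genes at the extremes, among those at 5 CPM or more in the genotype, differed between genotypes. In wild-type the lowest ratios belonged to cpg-3, an eggshell chondroitin proteoglycan gene, at -1.76, C15B12.3 at -1.62, the cytochrome P450 gene cyp-31A2 at -1.53 and C50E3.12 at -1.53, and the highest to K10D3.6, adh-1, eppl-1 and T03F1.6, the last at 2.25. In cec-4 the lowest were hsp-16.41 at -2.94, hsp-16.2 at -2.56, F22B5.4 at -1.33 and ZK1290.5 at -1.09, and the highest ZC123.1 at 2.09, rocf-1 at 1.91, R05G9R.1 at 1.81 and the neprilysin-like peptidase gene nep-17 at 1.76. In met-2 set-25 the lowest were F22B5.4 at -2.03, mfap-1 at -1.61, sea-2 at -1.56 and the glutathione S-transferase gene gst-4 at -1.56, and the highest K10D3.6 at 2.30, asns-2 at 1.95, WBGene00018464 at 1.92 and argn-1 at 1.65. Apart from K10D3.6 and F22B5.4, no gene stood in the 4 extremes of more than 1 genotype on the same side.

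Genes that the oocyte makes for the eggshell were lower in culture 2 of wild-type. Their 15 tested members had a median log2 ratio of -1.05 for wild-type, 0.02 for cec-4 and -0.01 for met-2 set-25, beside 0.05, 0.01 and 0.01 over all 13951 genes; the last 2 of the eggshell medians change sign under other scalings. The chitin synthase gene chs-1 (I 7554855 to 7559916) was at 85.1 and 29.5 CPM in wild-type, 50.4 and 53.6 CPM in cec-4, and 35.9 and 25.09 CPM in met-2 set-25. Its culture 1 and culture 2 values overlapped across genotypes, and wild-type went from the highest of the 6 levels to nearly the lowest. The egg surface receptor genes egg-1 and egg-2 behaved alike, with wild-type ratios of -1.34 and -1.31 against -0.06 and -0.15 in cec-4. In the fit of wild-type and cec-4, 0 eggshell genes rose and 10 of 15 fell, beside 18.3% and 12.1% of all genes, although 8 of the 15 ratios were positive in cec-4. Among 38 maternal regulators of the early embryo the medians were -0.36, 0.08 and -0.26, and 2 rose (5.26%) and 7 fell (18.4%), beside the same shares of all genes. The germline determinant nos-2 (II 7065618 to 7067051) fell, at 54.5 and 21.8 CPM in wild-type and 44.3 and 33.06 CPM in cec-4, and stood at 42.1 and 41.8 CPM in met-2 set-25. The translational repressor gene lin-41 was at 67.1 and 34.6, 61.06 and 71.2, and 40.4 and 20.2 CPM, so it was lower in culture 2 outside cec-4 and did not pass. Of 39 genes of germline and meiosis, 0 rose and 15 fell (38.5%), with medians of -0.48, -0.07 and -0.05. The meiotic chromosome axis gene him-3 and the synaptonemal complex gene syp-2 fell by 0.85 ± 0.18 and 0.74 ± 0.15 on the log2 scale. By contrast, the RNA-binding genes car-1 and cgh-1, described further below, did not pass in that fit, with log2 differences of 0.06 ± 0.12 and 0.11 ± 0.11.

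Early zygotic genes were lower in culture 2 in all genotypes by median, at -0.52, -0.23 and -0.31 over 45 members. Their ratio was negative in all 3 genotypes for 27 of the 45 and positive in all 3 for 1, beside 20.6% and 25.1% of all genes. The early transcript pes-10 (WBGene00003983, II 12846191 to 12847836) was at 228 and 113 CPM in wild-type, 188 and 129 CPM in cec-4, and 251 and 169 CPM in met-2 set-25. Every culture 1 value lay above every culture 2 value, with a log2 difference of -0.71 ± 0.13 and an edgeR adjusted p of 0.0515. The endoderm specification gene end-3 (V 14014695 to 14015980) was at 7.84 and 2.79, 5.95 and 3.97, and 6.96 and 5.68 CPM, where the culture 1 and 2 levels just failed to overlap. In the fit of wild-type and cec-4, 23 of 44 early zygotic genes fell, among them pes-10, end-3 and sdz-1, and 3 rose, among them sdz-8. Of all genes, 12.1% fell and 18.3% rose in that fit. With all genotypes 24 of the 45 were lower at an unadjusted p under 0.05, beside 6.82% of all genes, and 0 were higher. Genes of the cell cycle and replication, of which 61 were tested, had medians of -0.21, -0.07 and -0.20. Of these, 4 rose and 22 fell, beside the same 18.3% and 12.1% of all genes.

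By list median, genes of differentiated tissues were higher in culture 2. Over 37 muscle genes the median ratio was 0.84 for wild-type, 0.61 for cec-4 and 0.18 for met-2 set-25, and 31 rose and 0 fell in wild-type and cec-4, beside 18.3% and 12.1% of all genes. The giant sarcomere protein gene ttn-1 (V 6120909 to 6202632) was at 365 and 661 CPM in wild-type, 353 and 951 CPM in cec-4, and 362 and 397 CPM in met-2 set-25. The culture 1 levels were nearly equal, and the culture 2 levels spread above them with met-2 set-25 the lowest. The basement membrane perlecan gene unc-52 (II 14647321 to 14684456) was at 125.6 and 241, 126.1 and 343, and 137 and 138 CPM, so both met-2 set-25 cultures were at nearly the same level. Both genes rose, by 1.15 ± 0.10 and 1.20 ± 0.11. The tropomyosin gene lev-11 rose by 1.29 ± 0.16 while its ratio in met-2 set-25 was -0.16, and the sarcomeric scaffold gene alp-1 was higher in culture 2 of all 3 genotypes, by 0.93 ± 0.15 at an adjusted p of 0.0508.

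The epidermis list followed muscle, with medians of 0.57, 0.49 and 0.18 over 41 genes. In the fit of wild-type and cec-4, 35 rose and 0 fell, beside 18.3% and 12.1% of all genes. In met-2 set-25 the ratio was positive for 23 of the 41 (56.1%), beside 51.0% of all genes. The hedgehog-related gene qua-1 (II 8198803 to 8204004) was at 32.6 and 118 CPM in wild-type, 36.05 and 80.2 CPM in cec-4, and 51.7 and 38.3 CPM in met-2 set-25. It rose in the first pair and was lower in the second met-2 set-25 culture, so the values of the cultures overlapped. The related gene grd-1 and the lipid transfer protein gene dsc-4 rose by 1.54 ± 0.22 and 1.27 ± 0.18, and were higher in met-2 set-25 too, with ratios of 0.85 and 0.48. Collagens of the cuticle, of which 79 of 175 passed the filter on low counts, had medians of 0.40, 0.14 and 0.28. Of 71 in the fit of wild-type and cec-4, 23 rose and 0 fell, beside the same shares of all genes. The embryonic collagen sqt-3 (WBGene00005018, V 12352745 to 12354320) was at 272 and 677, 277 and 449, and 288 and 523 CPM. Its 3 culture 1 levels were nearly equal and every culture 2 level was above them, by 0.96 ± 0.14 at an adjusted p of 0.0508. A further 3 collagens, col-165, lon-3 and dpy-10, rose by 1.02 ± 0.17, 1.11 ± 0.21 and 0.80 ± 0.11.

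Gut, pharynx and nerve genes showed the same direction. The 26 intestine genes had medians of 0.60, 0.32 and 0.29, and 13 rose and 0 fell, beside 18.3% and 12.1% of all genes. The peptide transporter gene pept-1 (X 6456872 to 6461767) was at 10.3 and 25.3, 9.56 and 27.1, and 10.96 and 20.99 CPM, and the intermediate filament gene ifb-2 (II 5750188 to 5754140) was at 32.9 and 79.02, 33.96 and 59.04, and 32.8 and 64.05 CPM. For both genes culture 1 and culture 2 did not overlap, with differences of 1.25 ± 0.16 and 1.01 ± 0.14 at an adjusted p of 0.0508. The aspartic protease gene asp-3 rose by 0.92 ± 0.19, and the filament gene ifd-2 also rose, with a ratio of 0.92 for wild-type, 1.01 for cec-4 and 0.10 for met-2 set-25. The 22 pharynx genes had medians of 0.54, 0.48 and 0.10, with 11 of 21 (52.4%) rising, among them the troponin T gene tnt-4 and the myosin gene myo-1, and 0 falling. The 50 nerve genes had medians of 0.47, 0.39 and 0.17, and 29 (58%) rose and 0 fell, against the same shares of all genes. The synaptic vesicle priming gene unc-13 (I 7422785 to 7454116) was at 22.7 and 35.8, 17.98 and 35.1, and 22.7 and 36.2 CPM, so the 3 culture 2 levels were nearly equal and above all of culture 1. The touch neuron tubulin gene mec-12 and the dense core vesicle gene ida-1 rose by 0.83 ± 0.20 and 0.81 ± 0.19, while the ratio of ida-1 in met-2 set-25 was -0.59.

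**Figure D4:**
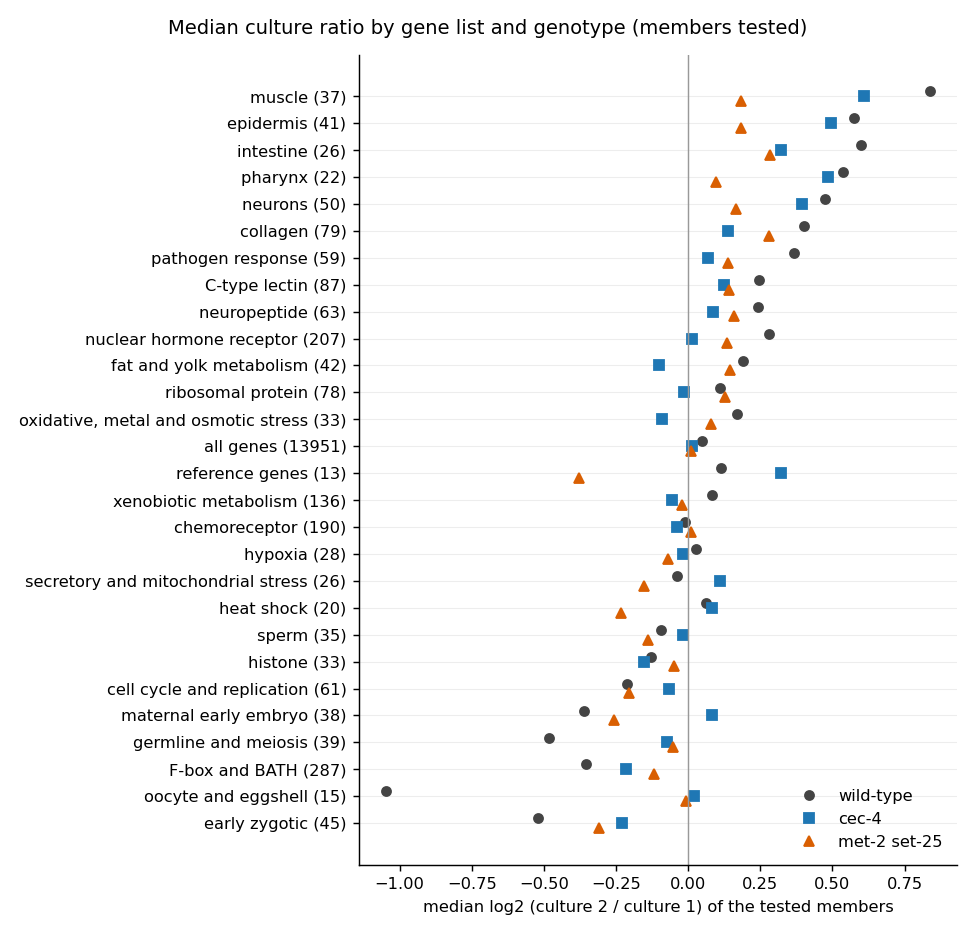
Median log2 ratio of culture 2 to culture 1 over the tested members of each gene list (number in brackets), with a circle for wild-type, a square for cec-4 and a triangle for met-2 set-25. Tissue lists stand to the right of 0 in all genotypes, with muscle at 0.84, 0.61 and 0.18, and early zygotic genes to the left, at -0.52, -0.23 and -0.31.

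Of the 27 gene lists with 3 or more tested members, leaving out the deleted genes, 16 had a median of the same sign in all 3 genotypes, with 10 higher and 6 lower. Every list median whose sign turned under another scaling lay between -0.07 and 0.03, among them those of germline and meiosis in met-2 set-25 and of nuclear hormone receptors and ribosomal proteins in cec-4. The ratios also followed the coding length of the gene, with a Spearman correlation across 8699 genes of 0.28 for wild-type, 0.47 for cec-4 and -0.12 for met-2 set-25. After a trend on coding length was subtracted, the muscle medians were 0.59, 0.38 and 0.24, the epidermis medians 0.44, 0.32 and 0.22, and the early zygotic medians -0.61, -0.31 and -0.32. These lists thus kept their direction in every genotype, and the gap between met-2 set-25 and the others narrowed for muscle and epidermis. Genes on chromosome X had a median ratio of 0.27, 0.14 and 0.10, while the medians of the 5 autosomes lay between -0.06 and 0.09 in every genotype.

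Other families moved less evenly, and their counts are read beside the 18.3% of all genes that rose and the 12.1% that fell in the same fit. Of 287 F-box and BATH genes, which encode adaptors for protein degradation, the medians were -0.35, -0.22 and -0.12, and 4 of 279 rose and 92 fell; fbxb-17 was at 79.4 and 35.5, 63.5 and 45.3, and 88.8 and 58.6 CPM. The culture 1 levels of fbxb-17 were all above those of culture 2, with a log2 difference of -0.75 ± 0.16 and an edgeR adjusted p of 0.0568. Of 207 nuclear hormone receptor genes 31 of 204 (15.2%) rose, which is below the share of all genes, and 1 fell, with medians of 0.28, 0.01 and 0.14; the rising members included nhr-91, by 1.15 ± 0.17. Of 59 pathogen response genes 17 of 54 rose and 0 fell, among them irg-7 and spp-5, by 1.06 ± 0.14 and 0.90 ± 0.21. Of 87 C-type lectin genes 20 of 77 rose, such as clec-180, and 4 fell, such as clec-87. Of 63 neuropeptide genes 8 of 58 rose and 2 fell, and of 190 chemoreceptor genes 10 of 165 rose and 4 fell, which is below the shares of all genes. Their median levels were 0.61 and 0.40 CPM, and that of sperm genes 0.67 CPM, against 17.6 CPM over all genes. Low counts limit calls, so these shares do not show that the families moved less. The median log2 difference in that fit was 0.40 for neuropeptide and -0.02 for chemoreceptor genes, against 0.05 over all genes. In fat and yolk metabolism 12 of 42 rose and 3 fell, and the lipid-binding protein gene far-1 (III 9080371 to 9081179) was at 32.2 and 123.3, 32.4 and 71.5, and 40.3 and 73.5 CPM. Culture 2 of far-1 was above culture 1 throughout, by 1.31 ± 0.21 at an adjusted p of 0.0508, and the glyoxylate cycle gene icl-1 rose by 0.79 ± 0.10. Ribosomal protein genes shifted little, with medians of 0.11, -0.01 and 0.13 over 78 genes, 17 rising (21.8%, near the share of all genes) and 2 falling, and rpl-25.1 rising by 0.91 ± 0.13. Histone genes had 3 of 33 rising and 10 falling, xenobiotic metabolism 12 of 136 and 6, sperm genes 0 of 28 and 1, secretory and mitochondrial stress 5 of 26 and 1, and oxidative, metal and osmotic stress 3 of 32 and 3. Of the 6 vitellogenin genes 1 was tested, and it did not pass.

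Whether a genotype's culture ratio differed from the others was tested with an extra culture term for that genotype, a test added after the data were seen and resting on 1 residual degree of freedom. In edgeR it called 0 genes for wild-type, with 500 (3.58%) at an unadjusted p under 0.05, and 0 for cec-4, with 171 (1.23%); no other tool was run for this test. For met-2 set-25 it called 943 genes, of which 152 (1.09%) had a higher ratio and 791 (5.67%) a lower ratio than in the other genotypes. In each such test the residual is the disagreement between the remaining 2 genotypes. The tests of wild-type and cec-4 therefore carry the met-2 set-25 ratio in their residual, and that of met-2 set-25 does not. The counts of 0 thus do not show that wild-type and cec-4 lack a culture ratio of their own. Of the 791 genes, 655 (82.8%) had their lowest level of all 6 libraries in culture 2 of met-2 set-25, beside 20.9% of all genes, though the rule for choosing them favours this. Their median coding length was 1884 bases, against 1131 over all tested genes and 672 in the 152. Their median level was 83.3 CPM, against 17.6 CPM over all tested genes and 53.4 CPM in the 152. The lower set included 11 of 37 muscle genes, 11 of 41 epidermis genes, 9 of 38 maternal regulators, 8 of 61 cell cycle genes and 5 of 39 germline genes, beside 5.67% of all genes. It held 3 of 50 nerve genes, 2 of 22 pharynx genes, 0 of 26 intestine genes and 0 of 15 eggshell genes, and 2 eggshell genes and 2 maternal regulators were in the higher set. Median levels were 95.8 CPM for muscle, 69.5 for epidermis, 99.97 for maternal regulators, 209 for cell cycle and 47.98 for germline genes. They were 14.6 CPM for nerve, 6.67 for pharynx, 14.9 for intestine and 47.3 for eggshell genes. Abundant genes are called more readily, and shares at like levels were not compared. In the second library of met-2 set-25 the ribosomal repeat share was lowest and the mitochondrial share highest, as given above, and their part in these differences was not tested.

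The spliceosome-associated factor gene mfap-1 (WBGene00009671, I 8638514 to 8640236) was at 198 and 253 CPM in wild-type, 249 and 305 CPM in cec-4, and 270 and 88.2 CPM in met-2 set-25. The last value was below all others, which overlapped between cultures, and the ratio differed by -1.94 ± 0.21 on the log2 scale (edgeR adjusted p = 5.58e-12). The zinc finger gene sea-2 was at 76.5 and 106, 103 and 139, and 110 and 36.99 CPM, again with the second met-2 set-25 library alone at the bottom. The same pattern was found in 2 genes named after their values were seen: T09B4.5, at 66.9 CPM in that library against 129 to 239 CPM in the others, and sut-2, at 43.9 CPM against 74.96 to 136 CPM. The RNA-binding genes car-1, cgh-1, mex-1 and gld-1 were at 35.3, 121, 18.2 and 35.2 CPM in the second met-2 set-25 library, each below its 5 other levels, and none of the 4 passed between the cultures of wild-type and cec-4. The linker histone gene his-24 and the related hil-3 had log2 ratios of -0.69 and -0.80 in met-2 set-25, whereas in wild-type their ratios were 0.94 and 0.74. In cec-4 the ratios were 0.06 and -0.05, between those of the other genotypes. Over the 33 histone genes tested, 4 had a higher and 3 a lower ratio by this test. In the other direction, cey-3, encoding a Y-box RNA-binding protein, was at 351 and 194.5 CPM in wild-type, 261 and 234 CPM in cec-4, and 231 and 319 CPM in met-2 set-25, and the lipid-binding gene lbp-9 was at 68.5 and 25.3, 44.99 and 35.8, and 42.3 and 60.3 CPM. Both were lower in culture 2 of wild-type and cec-4 and higher in culture 2 of met-2 set-25, with differences of 0.97 ± 0.21 and 1.40 ± 0.28 (edgeR adjusted p = 0.000558 and 0.00018). These 2 were also named after their values were seen.

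**Figure D5:**
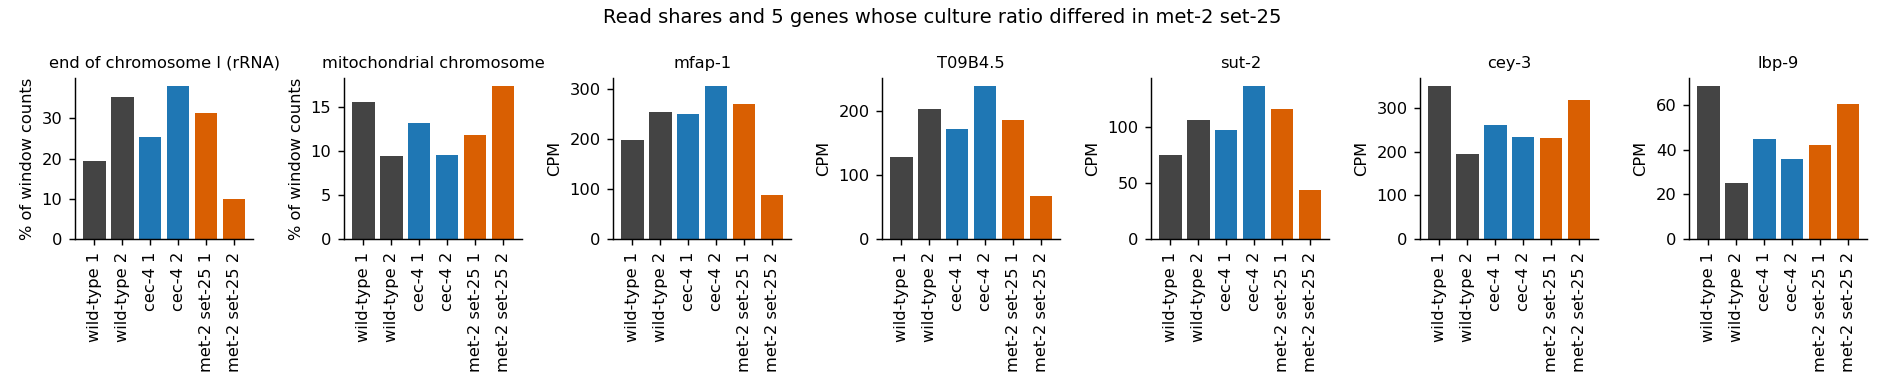
Bars give, for the 6 libraries, the share of window counts at the end of chromosome I and on the mitochondrial chromosome, then the levels of 5 genes in CPM; black is wild-type, blue cec-4 and orange met-2 set-25. In culture 2 of met-2 set-25 the ribosomal share is 9.93%, the mitochondrial share 17.4% and mfap-1 88.2 CPM.

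The opposite direction in wild-type and met-2 set-25 was plainest in gst-4 (IV 10142225 to 10143099), which is induced by oxidative stress. It was at 4.596 and 13.4 CPM in wild-type, 6.02 and 8.65 CPM in cec-4, and 8.35 and 2.51 CPM in met-2 set-25, with both the highest and the lowest level in a culture 2. The ratio in met-2 set-25 differed by -2.77 ± 0.38 (edgeR adjusted p = 4.38e-08). The genes F56D5.3 and Y46H3C.5 differed by -2.25 ± 0.35 and -2.26 ± 0.31. In the eggshell gene cpg-3 the levels were 50.6 and 14.6, 29.2 and 26.5, and 13.2 and 20.9 CPM, a difference of 1.63 ± 0.34 the other way.

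Genes commonly used as references in quantitative PCR differed in how steady they were between cultures. The root mean square of the 3 ratios ran from 0.09 to 0.70 over 13 such genes, with a median of 0.32, beside 0.32 over all genes. The steadiest was the tubulin gene tba-1 (I 9785781 to 9787624), at 846 and 841, 877 and 981, and 937 and 929 CPM, where cultures overlapped and the blocked difference was 0.05 ± 0.11. The RNA polymerase II gene ama-1 was at 506 and 626, 630 and 858, and 624 and 445 CPM, so the lowest and highest levels were both in culture 2. Of the 13 genes, 11 were lower in culture 2 of met-2 set-25, and 5 had a lower culture ratio there than in the other genotypes by the added test: ama-1, cdc-42, act-2, act-3 and sdha-1. The peroxisomal transporter gene pmp-3, at 98.99 and 114, 113 and 147, and 97.2 and 78.7 CPM, did not pass that test (adjusted p = 0.0927). In wild-type and cec-4, 5 of the 13 rose, among them tbb-2 by 0.34 ± 0.09, and 2 fell, among them gpd-4, which fell by 0.89 ± 0.25. Of all genes, 18.3% rose and 12.1% fell in the same fit. The actin genes and gpd-4 have near-identical copies, and reads shared between copies make their counts uncertain.

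The culture number also bore on the genotype comparisons. With genotype alone, edgeR called 96 genes between wild-type and met-2 set-25, 92 of them higher in the mutant and 4 lower, and with the culture number as a block 183 higher and 8 lower. For cec-4 the counts were 1 higher and 0 lower without the block and 1 higher and 1 lower with it.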

How the data were processed

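The authors deposited raw read counts per gene and per 500 bp window for 6 libraries, made after removal of ribosomal RNA, per the labels' protocols, and gene values on the log2 scale. These deposited log2 values could be recomputed from the counts with library-size scaling and 8 added, to within 5.15e-14. Not given in the sources used here are the aligner, counter, build and use of strand. Positions come from WBcel235 by gene identifier, with 19513 of 20182 matched; for 96.63% of genes the deposited width divides by 3, so it is called coding length.

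Counts were tested in R 4.3.3 with edgeR 4.0.16 (filterByExpr by genotype, TMM, quasi-likelihood, genotype plus culture number, 2 residual degrees of freedom, Benjamini-Hochberg adjustment over 13951 genes, threshold 0.05); the steps were tested on simulated data. SE is the log2 fold change over the square root of F. Within a genotype the log2 ratio is that of CPM plus 0.5, called past 2-fold with no test at a mean of 5 CPM or more. P-values of a culture difference set it against how far that difference disagreed between genotypes, in these cultures only. In the genotype comparisons with genotype alone, the spread is that between the cultures of a genotype. Alternatives were DESeq2 1.42.0, limma 3.58.1 (voom, and on the deposited log2 values), other scalings, filters and thresholds, and libraries or genotypes left out. Wilson intervals (95%) of the shares extend at most 0.0113 percentage points and cover counting error only.

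Same-numbered cultures deviated together, with correlations across genes of 0.66, 0.33 and 0.18, all over 0.1, so the numbers were taken to pair the samples; over the 8699 genes at 5 CPM or more the lowest, of cec-4 with met-2 set-25, was 0.12 by Pearson and 0.07 by Spearman, so that pairing is weak, and the labels do not say what equal numbers share. Genes named are the 5 of smallest p, the 10 of largest root mean square ratio, 4 of highest and 4 of lowest ratio per genotype, up to 4 members of each list (each at a mean of 5 CPM or more, apart from the first 5), the reference genes and the deleted genes; others are said to be chosen after their values were seen. Members, lists and rules were chosen with earlier results of these data known, and the chemoreceptor list was corrected after the values were seen. No sequences were used here.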

Additional observations from a re-analysis of the deposited data

Results flagged for a closer look

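The culture ratio of met-2 set-25 stood apart from that of the other genotypes for 152 genes with a higher and 791 with a lower ratio, by edgeR's test of the difference at an adjusted p of 0.05, which was added after the data were seen and rests on 1 residual degree of freedom. Among the 94 genes named in the text, 31 were lower and 10 higher by this test, beside 5.67% and 1.09% of all genes. Some of the 94 were named for this test or for an extreme ratio in met-2 set-25, which raises the share called. Each gene called is given with the log2 ratio in met-2 set-25 minus that in the other genotypes. The lowest were gst-4 at -2.77, Y46H3C.5 at -2.26, F56D5.3 at -2.25, T09B4.5 at -2.04, sea-2 at -2.02, qua-1 at -1.94, mfap-1 at -1.94 and sut-2 at -1.90. Next came rocf-1 at -1.89, car-1 at -1.57, mex-1 at -1.56, ZC123.1 at -1.54, act-3 at -1.50, lev-11 at -1.46 and ida-1 at -1.41. Smaller differences below 0 were those of sdz-8 at -1.31, nep-17 at -1.27, cgh-1 at -1.26, R05G9R.1 at -1.26, gld-1 at -1.21, his-24 at -1.19, unc-52 at -1.19 and hil-3 at -1.15. The remaining genes below 0 were myo-1 at -1.12, nhr-91 at -1.03, ttn-1 at -1.01, clec-180 at -0.98, sdha-1 at -0.91, ama-1 at -0.87, act-2 at -0.76 and cdc-42 at -0.68. Above 0 were clec-87 at 0.66, asns-2 at 0.84, nos-2 at 0.86, fbxa-215 at 0.93, syp-2 at 0.93, cey-3 at 0.97, hsp-16.41 at 1.11, him-3 at 1.15, lbp-9 at 1.40 and cpg-3 at 1.63. Culture 2 of met-2 set-25 also held the lowest ribosomal repeat share of counts, 9.93%, and the highest mitochondrial share, 17.4%, of the 6 libraries, and their part in these differences was not tested. Each genotype has 2 cultures, too few to test a library as an outlier within its group.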

How the results depend on the processing

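The count of genes between cultures was the least stable result. Against 0 in edgeR with TMM, it was 99 under the DESeq2 size factor method, 638 under upper quartile scaling, 814 with no filter on low counts, 851 with DESeq2, 83 with limma voom, 755 with limma on the deposited log2 values (added after the data were seen) and 1188 at an adjusted p under 0.10, and 0 at a minimum of 5 CPM, without the genotype block and at an adjusted p under 0.01. Leaving out each library in turn gave between 0 and 4177 genes, with 4177 and 3985 when replicate 1 or 2 of met-2 set-25 was left out and 1 or 0 for the others, and leaving out a genotype gave 0 without wild-type, 1 without cec-4 and 4130 without met-2 set-25. A genotype left with 1 library adds nothing to the culture difference, since its own genotype term takes up that library. Leaving out a single library was therefore in effect leaving out its genotype again. The log2 difference of wrt-2, for example, was 1.49 with either met-2 set-25 library left out and 1.49 with both left out. The counts without a single library are thus no separate check, and the influence of single libraries was not tested. Past 2-fold, the wild-type count of 344 became 528 at 1 CPM, 158 at 20 CPM and 2011 at 1.5-fold. That of cec-4, 180, became 74 at 20 CPM and 748 at 1.5-fold. That of met-2 set-25, 85, became 151, 43 and 854 in the same order as wild-type. At 5 CPM or more in every genotype, genes past 2-fold in the same direction in more than 1 genotype numbered 84. That count was 29 at 20 CPM and 669 at 1.5-fold. The replicate block lowered the coefficient of variation from 21.7% to 15.5% and moved the calls of met-2 set-25 against wild-type from 96 to 191 and of cec-4 from 1 to 2; without wild-type the coefficient was 18.6%. The added test for met-2 set-25 called 723 and 1173 genes under the DESeq2 size factor method and upper quartile scaling, against 943. For 14 genes, those of smallest p and of largest ratio, the fold change was refitted under each alternative and kept its sign; the other named genes were not refitted. The cause of these shifts was not tested, apart from fewer or more genes passing a stricter or looser limit by construction. With 2 cultures per genotype and no record of shared days or pools, what the culture number stands for cannot be read from these data.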
